A study of Mus musculus with 8 samples.

Results

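A small group of dopamine nuclei from the adult mouse midbrain is described here, marked by Eya1, Neurod6 and 4 other genes, and called the Eya1/Neurod6 nuclei or the members. Nuclei of a wild-type (wt) and a mutant library were first gated on at least 5000 unique molecular identifiers (UMIs, 1 per captured transcript tag) and on at least 5 UMIs per 10000 from Th, Slc6a3, Slc18a2 and Ddc together. Of 5740 nuclei in the table, 4045 passed this gate. Each gated nucleus was given a score, the mean of the z-scores of log1p UMIs per 10000 of Eya1, Plekhg1, Antxr2, Pde1c, Cdh6 and Neurod6, and the top 8% over both libraries were taken. This gave 324 members, 65 in the wt and 259 in the mutant library, and left 3721 other gated nuclei, 1195 wt and 2526 mutant. The last member scored 1.09 and the first nucleus left out 1.08. The 10 members nearest the limit scored 1.09 to 1.11 with tags of 3 to 5 of the 6 score genes, and the 10 nuclei just outside it scored 1.05 to 1.08 with tags of 2 to 5, so the limit runs through a continuous range.

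Midbrain dopamine neurons make dopamine from tyrosine through tyrosine hydroxylase (Th) and aromatic amino acid decarboxylase (Ddc), load it into vesicles with Slc18a2 and take it back up with the dopamine transporter Slc6a3. They lie in the substantia nigra, whose neurons project mostly to the dorsal striatum, and in the ventral tegmental area, which serves limbic and cortical targets; Sox6 marks many nigral neurons and Otx2 many tegmental ones, and Neurod6, a basic helix-loop-helix transcription factor, marks a subset of the tegmental neurons. Polycomb repressive complex 2 (PRC2) places the repressive methyl mark on lysine 27 of histone H3 at silenced developmental genes, and Eed is the core subunit that binds this mark.

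The study compared dopamine neurons with and without working PRC2. Both genotypes were of the strain labelled DatCreEed, wt or PRC2 mutant, at 8 months of age. The name joins a Dat (dopamine transporter) Cre driver with Eed, and the alleles carried by the wt mice were not given in the sources used here. Each genotype was 1 pool of 2 female mice and 1 male mouse, 1 library of FACS-sorted nuclei run on 4 lanes. With 1 library per genotype there was no replicate, no test could be made and genotype and library cannot be told apart; intervals below are 95% intervals for counting error only, and mutant means the library labelled so. The members held 1533856 UMIs in the wt and 5534687 in the mutant library, so that 1 UMI was worth 0.652 and 0.181 CPM (UMIs per 1000000 UMIs of the summed nuclei). Their median depth was 21142 UMIs (5209 to 99393) and 5370 genes per wt nucleus and 16346 UMIs (5178 to 125547) and 4688 genes per mutant nucleus, against medians of 25327 and 19940.5 UMIs in the other gated nuclei. The libraries shared 4 barcodes, none of them in a member. Eed tags lay at 17.6 CPM in wt and 35.96 CPM in mutant members; the deleted part of Eed is not given, so this 3' tag level does not check the label.

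The 6 score genes are given as a description, since the members were chosen by their measured levels. Eya1, a coactivator and phosphatase that works with sine oculis homeobox factors, stood at 197 CPM in wt and 179 CPM in mutant members, against 7.98 and 8.23 CPM in the other gated nuclei. Neurod6 stood at 27.4 and 32.5 CPM against 1.01 and 1.08 CPM, with a tag in 25 of the 65 wt and 117 of the 259 mutant members. Most members therefore showed no Neurod6 tag, and Eya1, found in 56 wt and 205 mutant members, was the commoner of the pair that names the group. Plekhg1, a guanine nucleotide exchange factor, stood at 230.1 and 269 CPM against 29.7 and 29.97 CPM in the others. The anthrax toxin receptor Antxr2 lay at 111 and 106 CPM against 9.01 and 7.15 CPM. The score genes thus separated the sets in both libraries, as the rule required. Pde1c, a calmodulin-dependent phosphodiesterase, was at 324 and 474 CPM in wt and mutant members, and the cadherin Cdh6 at 297 and 210.3 CPM. Both also differed between the libraries outside the group, where Pde1c stood at 33.7 and 72.1 CPM and Cdh6 at 28.7 and 16.4 CPM.

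**Figure D1:**
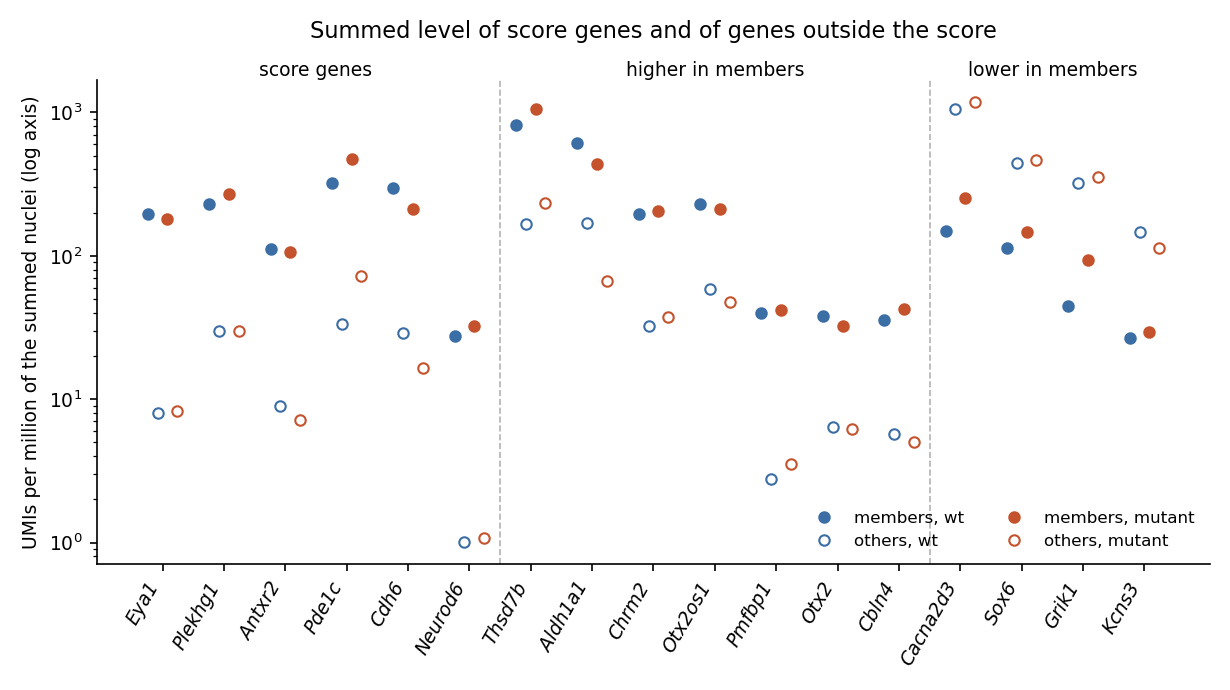
Summed level, in CPM on a log axis, of the 6 score genes and of genes outside the score in members (filled) and other gated nuclei (open) of the wt and the mutant library; each point is 1 set of nuclei in 1 library, with no replicate. Eya1 stands at 197 and 179 in members and 7.98 and 8.23 in the others, while Cacna2d3, Sox6, Grik1 and Kcns3 lie lower in members.

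At least 4 of the 6 score genes had a tag in 89.2% of wt and 88.4% of mutant members, against 5.44% and 4.32% of the other gated nuclei. Across gated nuclei the 15 pairs of score genes correlated with a median Pearson r of 0.31 in the wt (0.10 to 0.47) and 0.37 in the mutant library (0.29 to 0.51); all pairs share the nuclei and their depth. When each nucleus was thinned to 2000 UMIs, a Neurod6 tag was found in 10.8% (4.44 to 20.9) of wt and 6.95% (4.17 to 10.8) of mutant members, in 0.251% and 0.119% of the others and in 0 of 44 and 0 of 51 oligodendrocyte nuclei, which allows up to 6.82% and 5.88%. Oligodendrocyte nuclei, used as a gauge of free RNA, had median depths of 4468.5 and 4531 UMIs. Plekhg1 tags were found in 41.5% and 38.2% of thinned members but in 72.7% and 60.8% of the oligodendrocyte nuclei, and Pde1c tags in 47.7% and 58.7% against 25% and 29.4%. Of these 3 score genes, Plekhg1 was thus the least particular to dopamine nuclei.

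The members lay near each other on genes that neither the score nor the gate used. Among the 20 nearest neighbours of a member within its library, on 20 components of 2000 variable genes without those 10 genes, members made up a mean of 54.1% in the wt and 65.8% in the mutant library, where they are 5.16% and 9.30% of the gated nuclei. At least 10 of the 20 neighbours were members for 55.4% of wt and 71.0% of mutant members, and none was for 3 nuclei in each library.

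Markers of other cells were summed in each member. The oligodendrocyte list reached 10 UMIs per 10000 in 7.69% of wt and 5.41% of mutant members, against 7.20% and 5.70% of the others, and the astrocyte list in 1.54% and 0.772%. No member reached that level for the microglia list. The oligodendrocyte precursor list reached it in 21.5% of wt and 40.5% of mutant members, against 22.3% and 27.8% of the others. Most of that list's level was Lhfpl3, at 869 CPM in wt and 923 CPM in mutant members and 654 and 773 CPM in the others, while the precursor marker Pdgfra stood at 5.87 and 4.16 CPM and Sox10 at 3.91 and 4.16 CPM in members. A list of 12 fibroblast markers, drawn up after the values were seen, reached it in 4 of 65 wt members, at 177, 32.9, 30.4 and 22.0 UMIs per 10000, and in 1 of 259 mutant members, at 12.6. None of these 5 nuclei had a Neurod6 tag, all had tags of Eya1, and their gate genes stood at 5.76 to 23.6 UMIs per 10000. In the summed wt members the fibroblast list stood at 188 CPM and in the mutant members at 34.7 CPM, so several results below are given without these nuclei as well. No doublet caller was run. Tags of both Xist and a Y-linked gene, which pools of female and male mice can give in a doublet or through free RNA, were found in 18.5% of wt and 19.7% of mutant members and in 31.9% and 21.5% of the others. Nuclei with Xist and no Y-linked tag, 44 wt and 181 mutant members, hold none of these, and gave 107 genes 2-fold higher and 67 lower in members than in the others, and 106 higher and 46 lower in mutant members, in place of the counts given below for all members.

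**Figure D2:**
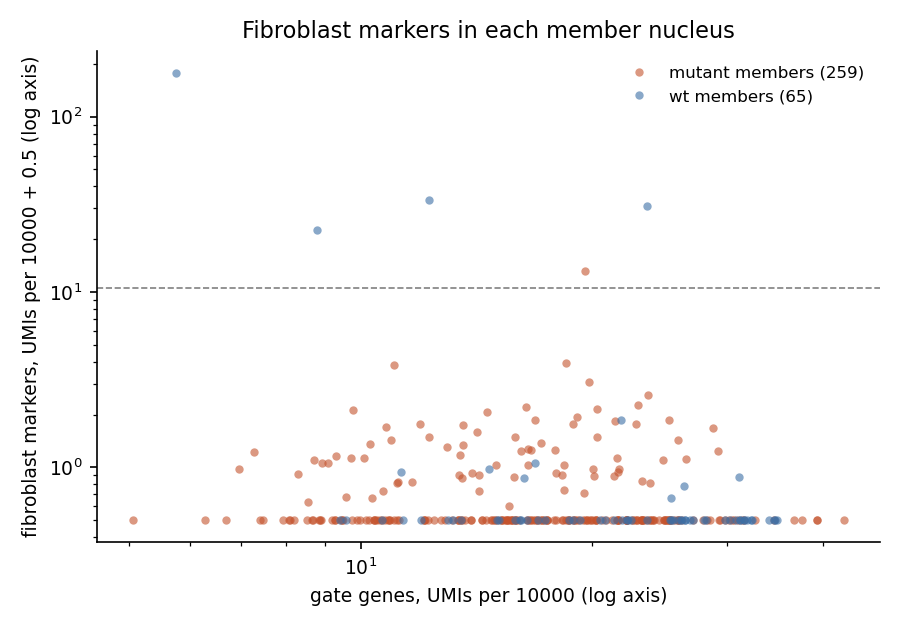
Summed UMIs per 10000 of the 12 fibroblast markers (vertical, plus 0.5, log axis) against the gate genes (horizontal, log axis); each point is 1 member nucleus. The highest wt nucleus stands at 177 UMIs per 10000 with a gate level of 5.76, close to the gate limit of 5.

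Members made up 5.16% of gated wt nuclei (65 of 1260; 4.004 to 6.53) and 9.30% of gated mutant nuclei (259 of 2785; 8.25 to 10.4). Among nuclei with Xist and no Y-linked tag the shares were 6.28% and 9.52%, and among those with a Y-linked and no Xist tag 5.23% and 9.74%, the last pair resting on 8 wt and 26 mutant members. The mutant share was the higher one in each split. The gate is set on genes that were lower in the mutant library, so the share is relative to the nuclei that still passed it, and a change in the number of such cells cannot be told apart from one in the others or in sorting.

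The 9692 genes with at least 50 UMIs in the members were compared with the other gated nuclei as log2 ratios of CPM with a pseudocount of 5 CPM. At 2-fold in both libraries, 95 genes were higher in members (0.98%, of which 6 are the score genes) and 56 were lower (0.578%). Without the fibroblast-marked nuclei 90 were higher and 56 lower. Pmfbp1, known from the sperm head-tail junction, stood at 39.8 and 42.1 CPM in wt and mutant members against 2.76 and 3.51 CPM in the others, a ratio of 14.4 (10.3 to 19.97) and 11.99 (9.93 to 14.5). The muscarinic acetylcholine receptor Chrm2 stood at 195 and 206 CPM against 32.2 and 37.5 CPM, a ratio of 6.06 and 5.497. Thsd7b, a thrombospondin-repeat membrane protein, was found in 62 of 65 and 258 of 259 members, at 810.4 and 1057 CPM against 167 and 232 CPM. Outside the score genes these 3 had the highest log2 ratios, by the lower of the libraries, with 5 CPM added to each level, which holds down the ratios of genes at low CPM.

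Further genes were higher in the members of both libraries. The mechanically gated channel Piezo2 lay at 34.6 and 47.5 CPM in members against 4.06 and 2.002 CPM. The synaptic organiser Cbln4 lay at 35.9 and 42.5 CPM against 5.67 and 5.04 CPM, and Tmem132d, a neuronal membrane protein, at 392 and 396 CPM against 82.4 and 101 CPM. A second calmodulin-dependent phosphodiesterase, Pde1a, joined Pde1c at 1142 and 1004 CPM against 312 and 210.1 CPM. Chn2, a Rac GTPase-activating protein, the Golgi membrane protein Golim4 and the noncoding genes Gm42208 and Gm45323 completed this set. Golim4 stood at 161 and 134 CPM against 32.9 and 30.0 CPM, and Gm42208, a short noncoding gene, at 20.2 and 22.9 CPM against 0.663 and 0.3496 CPM. Csf2rb2, a cytokine receptor subunit, at 30.6 and 40.7 CPM against 3.74 and 6.71 CPM, is uncertain in the wt library, where 57.4% of its member UMIs came from 1 nucleus.

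Aldh1a1, which oxidises retinaldehyde and the dopamine aldehyde, stood at 613 CPM in wt and 435 CPM in mutant members against 170.5 and 66.4 CPM in the others, a ratio of 3.59 (3.35 to 3.85) and 6.54 (6.22 to 6.88). Otx2 (mm10, chr14:48657677-48673819) stood at 37.8 and 32.2 CPM against 6.39 and 6.17 CPM, a ratio of 5.92 (4.36 to 7.91) and 5.22 (4.34 to 6.24), and had a tag in 32 wt and 104 mutant members. Its noncoding neighbour Otx2os1 (chr14:48668708-48870683, on the opposite strand) stood at 230.1 and 211 CPM against 58.4 and 47.5 CPM. The spans of this pair overlap and the strand setting of the counting is not given, so their tags cannot be told apart with certainty where they overlap.

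**Figure D3:**
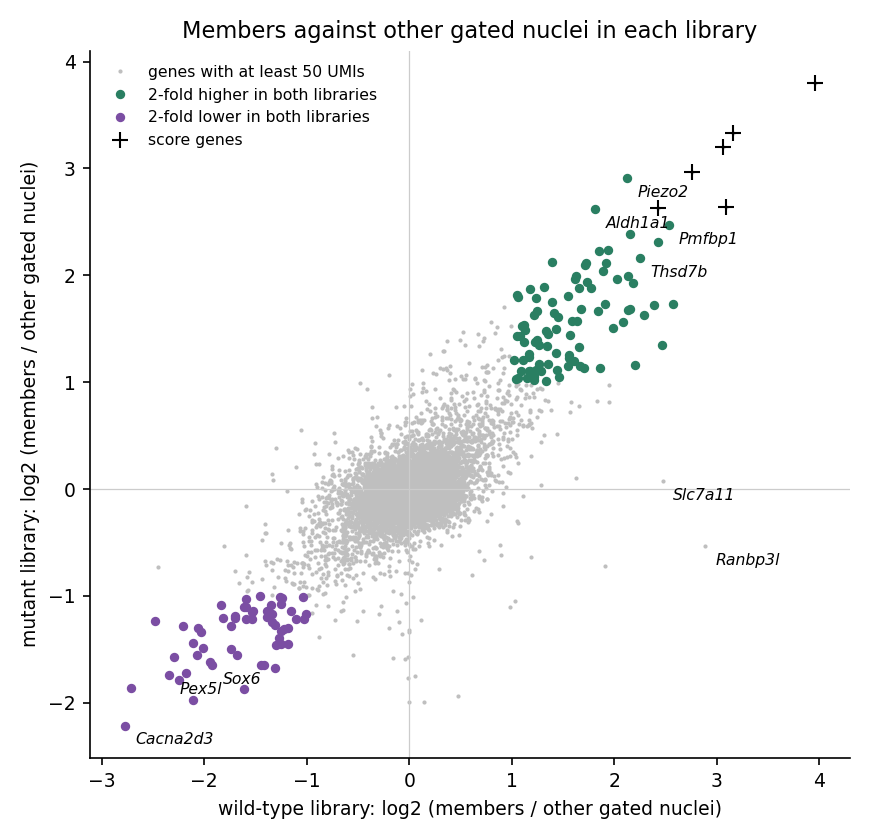
Log2 ratio of members to other gated nuclei in the wt (horizontal) and the mutant library (vertical), with a pseudocount of 5 CPM; each point is 1 of 9692 genes, green and purple mark the genes outside the score past 2-fold in both, and crosses the score genes. Ranbp3l and Slc7a11 lie apart, high in wt members alone.

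The genes lower in members were led by Cacna2d3, an auxiliary calcium channel subunit, at 149.9 CPM in wt and 251 CPM in mutant members against 1054 and 1183 CPM, a ratio of others to members of 7.03 (6.18 to 8.04) and 4.71 (4.47 to 4.97). It had a tag in 32 wt and 94 mutant members only. The transmembrane collagen Col25a1 stood at 251 and 229 CPM against 1101 and 913 CPM, and Pex5l, a channel-trafficking protein, at 311 and 284 CPM against 1602 and 962 CPM. The kainate receptor subunit Grik1 stood at 44.98 and 93.4 CPM against 323 and 352 CPM, with 52.2% of its wt member UMIs in 1 nucleus, and in Y-tagged nuclei, with 8 wt members, the log2 ratio nearer 0 of both libraries was 0.026. Sox6 (chr7:115470872-116038796) stood at 114 and 146 CPM against 445 and 468 CPM, and the potassium channel subunit Kcns3 at 26.7 and 29.5 CPM against 146 and 114 CPM. Lix1, at 59.3 and 34.5 CPM against 242 and 117 CPM, and the NMDA receptor subunit Grin2c, on 8 wt member UMIs, followed, with the little described 0610040J01Rik and Gm15155.

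The group's name was set against lists of tegmental and nigral genes, counted at 1.5-fold in both libraries with at least 10 UMIs; over all 13790 such genes 1.83% were higher and 1.57% lower. Of 14 tegmental-type genes measured of 16 listed, 5 were higher in members (Otx2, Cbln4, Lpl, Grp and Tacr3) and 2 lower (Calb2 and Nrip3). The lipase Lpl stood at 26.7 and 28.2 CPM against 4.56 and 3.67 CPM, and Tacr3, the neurokinin B receptor, at 188 and 141 CPM against 96.9 and 39.98 CPM. Grp, a peptide of tegmental neurons, was low, at 13.7 and 7.77 CPM against 1.86 and 1.398 CPM. Of 14 nigral-type genes, 7 were lower (Sox6, Ndnf, Kcns3, Kcnj6, Fgf1, Grik1 and Rab3c) and 1 was higher. Ndnf, which marks a nigral subtype, stood at 3.26 and 3.79 CPM against 83.8 and 32.2 CPM. The exception, Anxa1, stood at 28.03 and 18.2 CPM against 14.03 and 2.88 CPM. Calb1, a calcium-binding protein common in tegmental neurons, did not separate the sets, at 65.2 and 84.9 CPM against 82.2 and 51.4 CPM. The lists held more tegmental genes higher and more nigral genes lower in members, but no position in the tissue was measured.

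Factors that define dopamine neurons were mostly shared with the other gated nuclei. Of 17 identity factors 4 were higher in members (Otx2, Ebf1, Ebf3 and Nfib) and 2 lower (Sox6 and Pbx3). The shares over all 13790 genes, by the same 1.5-fold rule, were 1.83% higher and 1.57% lower. Ebf1, a helix-loop-helix factor of neuronal differentiation, stood at 280.3 and 381 CPM against 118 and 120.1 CPM. In the list of neural helix-loop-helix genes, the E proteins Tcf4 and Tcf12, which pair with factors such as Neurod6, were higher, Tcf4 at 748 and 698 CPM against 289.7 and 308 CPM. Twist2 was the third of 12 measured, and in the list of the Eya and Dach network Dach2 was the 1 of 8 that was higher, at 30.6 and 43.4 CPM against 8.03 and 10.8 CPM. The zinc-finger factor Prdm8 stood at 31.3 and 23.8 CPM against 4.16 and 5.18 CPM. Of the gate genes, Th stood at 194 and 114 CPM in members and 178 and 71.1 CPM in the others, Slc6a3 at 436 and 225 against 493 and 188 CPM. The dopamine D2 autoreceptor Drd2 was lower in members, at 179.9 and 134 CPM against 315 and 237 CPM, and Sncg was the other of 15 dopamine machinery genes that was lower.

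Receptors and channels of the members differed from those of the others in both directions. Of 36 receptors measured 5 were higher in members (Adra1b, Hcrtr2, Oprk1, Tacr3 and Gfra1) and 3 lower (Adra1a, Crhr1 and Lepr). By the same 1.5-fold rule, 1.83% of all 13790 genes were higher and 1.57% lower. Adra1b, an alpha-1 adrenergic receptor, stood at 109.5 and 122 CPM against 26.9 and 34.9 CPM, while its relative Adra1a stood at 7.17 and 9.395 CPM against 26.9 and 26.7 CPM. The orexin receptor Hcrtr2 stood at 80.2 and 91.1 CPM against 22.8 and 19.6 CPM, and the kappa opioid receptor Oprk1 at 248 and 165 CPM against 130.5 and 67.2 CPM. Crhr1, the corticotropin-releasing hormone receptor, stood at 8.48 and 13.9 CPM against 51.1 and 41.5 CPM. Of 40 ion channel genes 4 were higher, among them Kcnip1, Kcnh7 and Scn9a, and 4 lower (Cacna2d3, Kcnj6, Kcnd3 and Cacna1g). Kcnj6, the GIRK2 potassium channel, stood at 501 and 392 CPM against 1074 and 637 CPM.

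Wiring genes showed the same mixture. Of 43 axon guidance genes 7 were higher in members (Slit1, Sema5a, Sema6a, Nrp1, Nrp2, Epha10 and Efna5) and 7 lower (Unc5d, Sema5b, Sema6d, Epha3, Epha4, Epha7 and Ephb1). Over all 13790 genes 1.83% were higher and 1.57% lower by this 1.5-fold rule. The semaphorin receptor Nrp1 stood at 101 and 169 CPM against 41.8 and 42.7 CPM, whereas the ephrin receptor Epha4 stood at 46.3 and 59.6 CPM against 166 and 152 CPM. Among 14 cadherins beside Cdh6, Cdh13 and Cdh18 were higher and Cdh20 lower, with Cdh18 at 4355 and 4724 CPM against 2341 and 1905 CPM. Of 15 phosphodiesterases beside Pde1c, Pde1a and Pde7b were higher and Pde11a lower. In the release machinery Unc13c, a vesicle priming factor, and the calcium sensor Syt2 were the 2 of 26 that were higher, Unc13c at 436 and 539 CPM against 163 and 157 CPM.

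Mutant members were then compared with wt members. Of the 9692 genes 119 were at least 2-fold higher in mutant members (1.23%) and 34 lower (0.351%), and 25 (0.258%) were at least 4-fold higher and 4 (0.0413%) lower. In the other gated nuclei, where far more UMIs stood behind each value, 89 genes (0.918%) were 2-fold higher and 39 (0.402%) lower. Among them 70 were higher in both sets, 58.8% of the members' genes and 78.7% of the others', and 8 were lower in both. Without the 5 fibroblast-marked nuclei 127 genes were higher (1.31%) and 24 lower (0.248%), and 114 of the 119 and 22 of the 34 were still counted. Of the 119 higher genes 31 were in 4 lists of developmental regulators, of which 38 had 50 UMIs or more, and none of the 34 lower genes was. For 30 of the 119 the wt members had 0 UMIs; such genes passed the filter through the mutant members alone and had to be counted as higher, so their number supports nothing by itself.

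**Figure D4:**
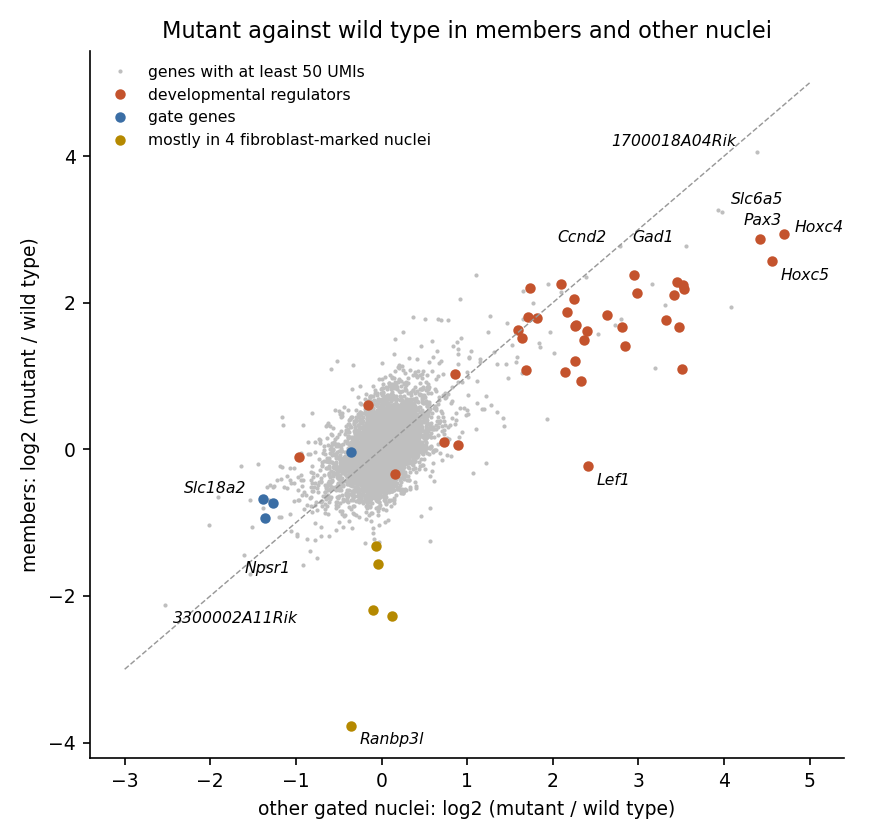
Log2 ratio of mutant to wt in members (vertical) against other gated nuclei (horizontal), with a pseudocount of 5 CPM; each point is 1 of 9692 genes and the dashed line marks equal ratios. Of the 38 regulators (red) most lie below the line; genes carried mostly by the 4 fibroblast-marked wt members (gold) lie low in members and near 0 in the others.

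Developmental regulators that were silent or nearly so in wt members had tags in the mutant members. Hoxc4, a homeobox gene of posterior body pattern (chr15:103018934-103036852), had 0 UMIs in wt and 184 UMIs in 68 mutant members, 33.2 CPM or at least 17.0-fold higher when 3 counts are allowed for in the summed wt members, and 126 CPM in the other mutant nuclei. Its neighbour Hoxc5 had 0 wt UMIs and 24.8 CPM, at least 12.7-fold higher, against 113 CPM in the others. Pax3, a dorsal neural tube factor (chr1:78101267-78197134), had 0 wt UMIs and 31.4 CPM in 47 mutant members, at least 16.1-fold higher, against 105 CPM in the others. All 3 were thus present in mutant members, but lower there than in the other mutant nuclei. Tbx20 (20.96 CPM, at least 10.7-fold higher), Sim2 (18.97 CPM, at least 9.7-fold), and Shox2 (18.8 CPM, at least 9.61-fold) also had 0 UMIs in wt members; all are transcription factors of embryonic patterning. Onecut2, a factor of early neuron subtypes, was already present at 29.99 CPM in 20 wt members and stood at 165 CPM in 229 mutant members, 5.51-fold higher (4.09 to 7.58), against 11.2 and 173 CPM in the others.

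Genes of inhibitory transmission were also higher. Slc6a5, the neuronal glycine transporter GlyT2 (chr7:49910146-49963856), had 0 UMIs in wt and 42.1 CPM in mutant members, with a tag in 75 nuclei and a level at least 21.5-fold higher; the other mutant nuclei stood at 76.1 CPM. Gad1, which makes GABA, stood at 3.26 CPM in wt, on 5 UMIs, and 51.3 CPM in mutant members, 15.7-fold higher (6.67 to 48.9), and at 4.22 and 104 CPM in the others. Thinned to 2000 UMIs, a Gad1 tag was found in 1.54% of wt and 8.88% (5.71 to 13.0) of mutant members, in 4.55% and 3.92% (0.478 to 13.5) of oligodendrocyte nuclei and in 16.7% of the other mutant nuclei. Gad2, the second GABA enzyme, stood at 8.48 and 35.8 CPM, 4.22-fold higher (2.41 to 8.07), and 61.5% of its wt member UMIs came from 1 nucleus. With the vesicular carrier Slc32a1 this made 4 of 8 GABA and glycine genes past 1.5-fold, a rule that 4.71% of 13790 genes passed upward and 3.47% downward. The list summed to 186 CPM in wt and 326 CPM in mutant members, 1.75-fold higher (1.55 to 1.99), against 2.06-fold in the others.

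The highest ratio in members belonged to the noncoding gene 1700018A04Rik (chr13:31565492-31625792), with 0 UMIs in wt and 433 UMIs in 148 mutant members, 78.2 CPM or at least 40.0-fold higher; the other mutant nuclei stood at 105 CPM. The noncoding gene Gm12688 had 0 wt UMIs and 43.0 CPM in mutant members, at least 21.99-fold higher. Ccnd2, a G1 cyclin, stood at 7.17 and 78.1 CPM, 10.9-fold higher (6.02 to 21.97), and at 5.57 and 67.95 CPM in the others, so members and others were alike in both libraries. Spag6, a component of the axoneme, had 0 wt UMIs and 20.4 CPM, at least 10.4-fold higher. Gm3488, at 1.304 and 27.8 CPM, belongs to a family of near-identical copies on chromosome 14 whose reads the counting could split, and is uncertain. The cell cycle inhibitor Cdkn2a, which PRC2 is known to silence, had 0 UMIs in wt and 7.59 CPM in mutant members, at least 3.88-fold higher. The other mutant nuclei stood at 19.2 CPM. Cdkn2a and Cdkn2b were the 2 of 14 genes of their list past 1.5-fold higher, where 4.71% of all genes were.

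The 250 bases before the RefSeq start (GRCm38.p6, the assembly of mm10) are shown, 5′ to 3′ on the gene's strand and with CG pairs in capitals, for the 3 highest genes that have an entry and for 1 of the lowest, since CG-rich promoters are known to be the usual ground of Polycomb repression.
1700018A04Rik, chr13:31582514-31582763, minus strand: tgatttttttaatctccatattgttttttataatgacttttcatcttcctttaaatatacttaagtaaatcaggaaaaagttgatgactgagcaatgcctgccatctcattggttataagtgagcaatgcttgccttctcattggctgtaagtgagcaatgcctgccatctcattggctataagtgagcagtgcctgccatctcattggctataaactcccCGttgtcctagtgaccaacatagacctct
Slc6a5, chr7:49910049-49910298, plus strand: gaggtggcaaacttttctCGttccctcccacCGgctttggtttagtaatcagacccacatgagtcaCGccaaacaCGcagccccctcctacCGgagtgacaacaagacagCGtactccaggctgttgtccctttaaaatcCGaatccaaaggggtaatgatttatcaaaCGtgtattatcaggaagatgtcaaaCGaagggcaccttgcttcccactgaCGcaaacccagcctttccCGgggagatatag
Hoxc4, chr15:103034145-103034394, plus strand: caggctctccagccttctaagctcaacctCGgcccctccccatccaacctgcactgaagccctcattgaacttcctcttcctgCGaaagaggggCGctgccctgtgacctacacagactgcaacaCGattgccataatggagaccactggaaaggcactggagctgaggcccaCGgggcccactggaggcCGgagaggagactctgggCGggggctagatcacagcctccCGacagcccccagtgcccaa
3300002A11Rik, chr12:99340781-99341030, plus strand: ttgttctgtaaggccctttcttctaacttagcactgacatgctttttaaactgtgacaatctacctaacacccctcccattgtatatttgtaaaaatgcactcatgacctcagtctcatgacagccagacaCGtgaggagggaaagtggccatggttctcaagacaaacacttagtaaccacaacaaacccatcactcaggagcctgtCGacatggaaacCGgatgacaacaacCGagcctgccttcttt
They held 1, 11, 8 and 4 CG pairs, in that order. Of the windows of all measured genes 78.2% (5856 of 7490) held at least 10 CG pairs, as 1 of these 4 did. GENCODE starts 1700018A04Rik and Hoxc4 further upstream, so those 2 windows lie inside the annotated genes, and the Slc6a5 window runs over its GENCODE start. A comparison of CG pairs between the higher genes and all genes was void, because only 52.0% of the genes 4-fold higher and 60.5% of those 2-fold higher had a window.

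By list, 14 Hox genes had at least 10 UMIs in members and 17 further ones in the table had fewer. All 14 had 0 UMIs in wt members, so they passed through the mutant members alone and could not come out lower; that 13 of them, all but Hoxd9, were past 1.5-fold higher is a description beside the 4.71% of all genes. The Hox genes summed to 0 CPM in wt and 168 CPM in mutant members, at least 86.1-fold higher, and to 0.0795 CPM, on 3 UMIs, and 559 CPM in the others. Pax factors summed to 6.52 and 84.4 CPM, 12.9-fold higher (6.97 to 27.2), with 5 of 6 past 1.5-fold and 3 at 0 UMIs in wt members, and to 264 CPM in the other mutant nuclei. Other homeobox regulators summed to 92.6 and 438 CPM, 4.73-fold (3.99 to 5.64), with 26 of 40 higher, 25 of the 40 at 0 in wt members, and 1, Prrx1, lower, the latter not without the fibroblast-marked nuclei. The remaining patterning regulators summed to 132 and 369 CPM, 2.79-fold (2.41 to 3.23), with 23 of 39 higher and 18 of the 39 at 0 in wt members. Without the fibroblast-marked nuclei they summed to 98.9 and 365 CPM.

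Taking the 4 lists as 1, 99 of 202 regulators had at least 10 UMIs in members, 60 of them with 0 in wt members, and 67 were past 1.5-fold higher, where 4.71% of all genes were. The 60 passed the filter through the mutant members alone, which fixed their direction, so the count and the median support nothing by themselves. Their median log2 ratio was 0.93, or 1.53 with those at 0 set to the floor and no pseudocount, beside a median of 0.01 over all genes. The sum stood at 231 CPM in wt and 1059 CPM in mutant members, 4.58-fold higher (4.11 to 5.11), and at 187 and 2110.0 CPM in the others, 11.3-fold higher. Without the fibroblast-marked nuclei it stood at 192 and 1054 CPM in members. Over all members, the summed level was 1.99-fold lower in mutant members than in the other mutant nuclei. Over all genes with at least 10 UMIs, the median log2 ratio of mutant members to other mutant nuclei was -0.015. Of the 99 regulators, 80 lay lower in mutant members. Exceptions included Tbx1 (18.1 CPM against 12.2 CPM), Shox2 (18.8 against 17.8 CPM) and Lhx9 (14.8 against 14.7 CPM), which lay as high or higher in members.

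The same held nucleus by nucleus. The 4 lists together gave a median of 1.44 UMIs per 10000 (quartiles 0.888 to 2.68) in wt members, 8.42 (4.76 to 13.4) in mutant members, 1.55 in other wt nuclei and 20.3 (11.5 to 28.2) in other mutant nuclei. Hox genes alone gave a median of 0.850 UMIs per 10000 in mutant members, with 35.9% of nuclei at 0, and 4.33 in the other mutant nuclei, with 17.3% at 0. Thinned to 2000 UMIs, 20.5% (15.7 to 25.9) of mutant members and 51.2% (49.2 to 53.2) of other mutant nuclei had a Hox tag, against 0 of 65 wt members (which allows up to 4.62%) and 0 of 44 and 0 of 51 oligodendrocyte nuclei. Unthinned, the shares were 64.1% and 82.7%. Thinned likewise, a tag of any of the 4 lists was found in 77.2% (71.6 to 82.2) of mutant members and 91.0% (89.8 to 92.1) of other mutant nuclei, against 36.9% of wt members and 63.6% and 64.7% of the wt and mutant oligodendrocyte nuclei. That oligodendrocyte share was alike in both libraries and lay above the share of wt members, so it cannot serve as a gauge of free RNA for these lists.

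**Figure D5:**
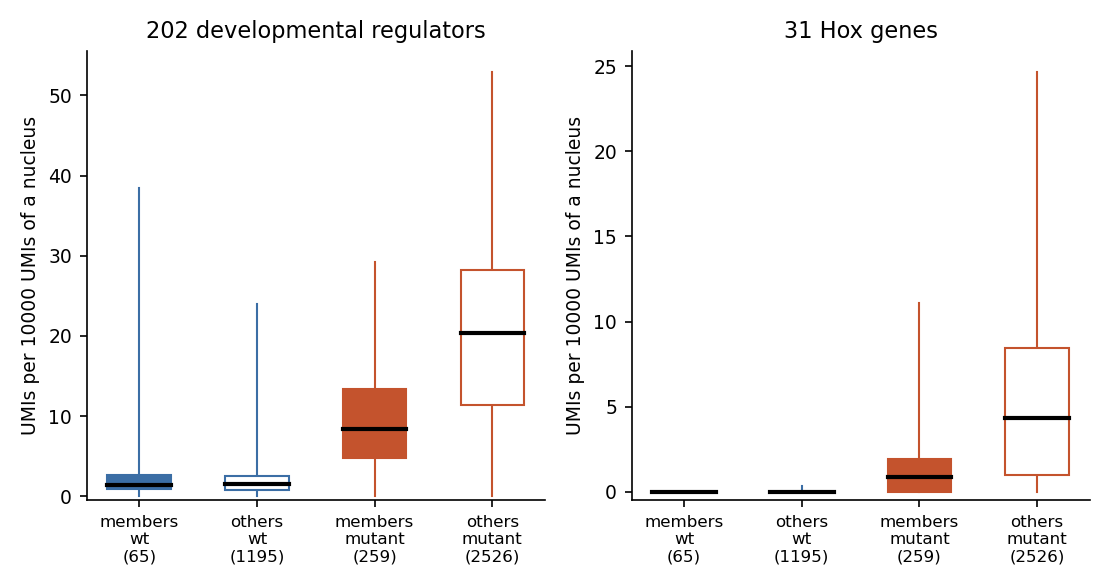
Developmental regulators and Hox genes in UMIs per 10000 UMIs of each nucleus, for members and other gated nuclei of each library; boxes give the median and quartiles over nuclei, which are not replicates. The medians for all regulators are 1.44 and 8.42 in wt and mutant members and 1.55 and 20.3 in the others.

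Th, Slc6a3 and Slc18a2 were lower in mutant members, a description since the gate bounds these genes. Th stood at 194 CPM in wt and 114 CPM in mutant members, 1.69-fold lower (1.47 to 1.95), and was 2.496-fold lower in the others. The dopamine transporter Slc6a3 stood at 436 and 225 CPM, 1.94-fold lower (1.76 to 2.13), against 2.62-fold in the others, and Slc18a2 at 720.4 and 448 CPM, 1.61-fold lower (1.498 to 1.73), against 2.64-fold. Ddc differed by 1.03-fold (0.966 to 1.09), at 862 and 839 CPM. For each of the 4 the ratio in members was nearer to 1 than that in the others.

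The same order was seen outside the gate genes for En1, Pitx3 and Aldh1a1. En1, a homeobox factor that maintains dopamine neurons, stood at 92.6 and 63.6 CPM in wt and mutant members, 1.46-fold lower (1.19 to 1.77), and at 74.2 and 26.3 CPM in the others, 2.83-fold lower. Pitx3, which drives Th and Aldh1a1, stood at 20.9 and 13.01 CPM, 1.604-fold lower (1.02 to 2.46), against 3.15-fold in the others. Aldh1a1 was 1.41-fold lower (1.31 to 1.52) in mutant than in wt members and 2.57-fold lower in the others. Nr4a2, a nuclear receptor required for the dopamine phenotype, stood at 113 and 142 CPM in members and at 115 and 87.9 CPM in the others, higher in the one and lower in the other. Of 17 identity factors 1 was past 1.5-fold lower in mutant members, Foxa2 (18.9 and 10.7 CPM), and none higher. Of all genes 3.47% were lower and 4.71% higher by this rule. The median mutant to wt log2 ratio of the 17 was -0.15 in members and -0.31 in the others. Gch1, which makes the cofactor of Th, stood at 26.7 and 10.8 CPM, 2.47-fold lower (1.62 to 3.73). With Aldh9a1 it was 1 of 2 lower genes among 15 of the dopamine machinery. The ratios of Foxa2 and Gch1 in the others are not reported here. The score genes, held by the rule in both libraries, all stayed within 1.5-fold.

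Of the 15 lowest genes in mutant members, several rested in whole or in part on the fibroblast-marked nuclei. Ranbp3l stood at 85.4 CPM in wt, 131 UMIs in 7 nuclei, and 1.63 CPM in mutant members, and its log2 ratio of -3.77 became -0.13 without them. Slc7a11, the cystine transporter, went from -2.27 to -0.09 on this scale, Adam12 from -2.19 to -0.95, Dcdc2a from -1.57 to 0.45, Lpar1 from -1.32 to 0.07, Slc1a3 from -1.27 to -0.53 and Lama2 from -1.27 to -0.38. Without those nuclei none of these 7 genes stayed past 2-fold lower, so they are not described as 2-fold lower in dopamine nuclei. Adam12, at -0.95, still lay close to that limit, and Slc1a3, at -0.53, kept a smaller gap.

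The other 8 had nearly the same ratio without those nuclei. The antisense gene 3300002A11Rik (chr12:99341154-99361827) stood at 83.4 CPM in wt and 15.4 CPM in mutant members, 5.43-fold lower (4.098 to 7.24), and at 135 and 19.2 CPM in the others. The neuropeptide S receptor Npsr1 stood at 130.4 CPM in 29 wt and 40.5 CPM in 62 mutant members, 3.22-fold lower (2.65 to 3.92), with 25% of the wt UMIs in 1 nucleus, and at 20.97 and 8.77 CPM in the others. Fbn2, a microfibril protein, stood at 111 and 36.7 CPM, 3.04-fold lower (2.47 to 3.74), and at 27.04 and 14.0 CPM in the others. Npsr1 and Fbn2 thus stood higher in members than in the others in both libraries, and lower in mutant than in wt members. Among nuclei with a Y-linked and no Xist tag, with 8 wt members, the log2 ratio of Fbn2 was 1.04, in the other direction. Frem2, of the extracellular matrix, stood at 43.7 and 13.6 CPM and the noncoding Gm44593 at 43.03 and 12.6 CPM. Gm8206 (80.2 and 21.3 CPM) and Gm15446 (34.6 and 8.13 CPM) have near-identical copies and the antisense gene Gm45645 (33.2 and 7.95 CPM) may share reads with the gene it overlaps, so these 3 are uncertain, as is 3300002A11Rik for the latter reason. In the Y-tagged nuclei these 3 turned direction too, with log2 ratios of 0.78, 0.48 and 0.65.

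Members and others differed in their mutant to wt ratio at some genes. Kctd16, an auxiliary subunit of GABA-B receptors, stood at 48.9 CPM in wt (17 nuclei) and 110.2 CPM in mutant members (83 nuclei) but at 128 and 83.4 CPM in the others. Among nuclei with a Y-linked and no Xist tag, with 8 wt members, the difference in log2 ratio for Kctd16 was -0.055, in the other direction. The synaptic vesicle protein Synpr stood at 14.99 and 39.2 CPM against 22.96 and 17.2 CPM, with 56.5% of its wt member UMIs in 1 nucleus, and Coro6, a coronin, at 4.56 and 28.4 CPM against 23.8 and 32.1 CPM. Gm46102, Acer2, Zfp804b, Slc39a12 and Adamts19 were the other genes with the widest gap in this direction, on 1 to 153 wt member UMIs. In the opposite direction, Tbx15 stood at 3.91 and 14.1 CPM in members and 1.41 and 68.2 CPM in the others, with a tag in 2 of 65 wt members. The antisense gene Vax2os stood at 0.652 and 16.8 against 0.133 and 81.97 CPM, on 1 UMI in wt members. Lef1, a Wnt effector, stood at 22.8 and 18.8 CPM against 2.39 and 34.2 CPM, but 80.0% of its wt member UMIs came from 1 nucleus. Gm29683 stood at 16.3 and 41.01 CPM against 5.41 and 90.4 CPM, and its member log2 ratio of 1.11 was 2.71 without the fibroblast-marked nuclei. Hoxc5, Ranbp3l, Slc7a11 and Adam12, given above, were the remaining ones.

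Outside the regulators, lists of other neuron types were compared as well. The GABA neuron markers, which share Gad1, Gad2 and Slc32a1 with the list above, summed to 22.8 CPM in wt and 122 CPM in mutant members, 5.33-fold higher (3.79 to 7.72), against 5.66-fold in the others. Besides these, Gata3 stood at 0 and 11.02 CPM and Tal1 at 0 and 7.41 CPM, both factors of midbrain GABA neurons. No member reached 10 UMIs per 10000 of these markers. The glutamate neuron markers summed to 37.2 and 81.5 CPM, 2.19-fold higher (1.66 to 2.94), against 2.10-fold in the others. The part of other neurons in these levels was not tested. Of 14 immediate early genes 6 were past 1.5-fold higher in mutant members (Fos, Fosl2, Jund, Nr4a1, Nr4a3 and Dusp1), and 5 were without the fibroblast-marked nuclei. Of all genes 4.71% were past 1.5-fold higher in mutant members and 3.47% lower, which also applies to the lists below. The immediate early list summed to 128 and 258 CPM, 2.02-fold higher (1.74 to 2.36), against 1.41-fold in the others. Nr4a3, an activity-induced nuclear receptor, stood at 8.48 and 55.5 CPM, 6.54-fold higher (3.77 to 12.4), and Nr4a1 at 13.04 and 37.9 CPM. Of these 14 genes 9 rested on under 10 wt member UMIs. Neuropeptide genes past 1.5-fold were 4 of 11 measured (Cck, Calcb, Chga and Chgb), with the granule protein Chga at 16.95 and 40.5 CPM. Tegmental-type genes past it were 4 of 14 (Calb2, Cck, Nrip3 and the vesicular glutamate transporter Slc17a6, 34.6 and 55.1 CPM), with none lower, and 3 higher and 1, Grp, lower without the fibroblast-marked nuclei. Nigral-type genes, 6 of which were lower in the other mutant nuclei (where 1.7% of all genes were, and 2.23% were higher), had none lower and 1, Grik1, higher in mutant members, and 1 lower, Anxa1, without the fibroblast-marked nuclei.

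Receptors past 1.5-fold lower in mutant members were 4 of 36 (Oprm1, Chrm5, Lepr and Glra3), where 3.47% of all genes were lower and 4.71% higher, and 6 of 36 without the fibroblast-marked nuclei, with Oprk1 and Htr2c. The mu opioid receptor Oprm1 stood at 25.4 and 9.58 CPM, 2.66-fold lower (1.71 to 4.09), the leptin receptor Lepr at 22.2 and 7.23 CPM and the glycine receptor subunit Glra3 at 141 and 89.1 CPM; Chrm5 rested on 6 and 5 UMIs. Vipr2 was the 1 receptor past 1.5-fold higher. Of 40 ion channel genes 5 were higher, among them Abcc8, Kcnip1, Kcna1 and Cacna2d3, and 1 lower, Kcnn3, the SK3 channel that shapes pacemaking, at 448 and 244 CPM, 1.84-fold lower (1.67 to 2.02). Axon guidance genes were higher in 4 (Sema3a, Sema3e, Nrp1 and Ephb1) and lower in 2 (Sema3d and Efnb2) of 43 cases, or in 1 other, Nrp2, without the fibroblast-marked nuclei; Nrp1 stood at 101 and 169 CPM, while in the others it differed little (41.8 and 42.7 CPM). PRC2 subunits other than Eed stayed within 1.5-fold, 10 of 11 in all, and of 22 PRC1 and KDM6 genes Pcgf5 and Cbx8 were higher.

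The members were not uniform. Nuclei with a Neurod6 tag (25 wt, 117 mutant) and without one (40 and 142) were compared within each library. Chrm2 stood at 280 CPM with and 128 CPM without a Neurod6 tag in wt members but at 203 and 209 CPM in mutant members, so this gap was not seen in both libraries. Npsr1 lay at 169 and 100.1 CPM in wt and at 45.6 and 35.3 CPM in mutant members, and Aldh1a1 at 464 and 729.6 CPM in wt and 398 and 472 CPM in mutant members. In mutant members with a Hox tag (166) and without (93), Slc18a2 stood at 419 and 531 CPM, En1 at 57.2 and 82.2 CPM, Pitx3 at 10.2 and 21.3 CPM and Pax3 at 42.0 and 0.709 CPM, while Th stood at 117 and 107 CPM. The nuclei without a Hox tag were shallower, with a median of 12916 against 19983.5 UMIs, and the part of depth in these gaps was not tested.

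Other marker scores of dopamine subtypes were cut at the same top 8% of gated nuclei. The score of Otx2os1 and Klhl14 picked 29.2% of wt and 28.2% of mutant members, where it picked 7.30% and 8.33% of all gated nuclei, so that 20.7% and 31.5% of its nuclei were members. Sema5b and Sulf1 picked 1.54% of members in each library, against 10.6% and 6.86% of all gated nuclei. Cgnl1, Etv1 and Pde11a picked 3.08% and 1.93% of members, against 10.3% and 6.97% of all gated nuclei. The score of Calcr, Npsr1 and Nos1 picked 27.7% of wt and 12.7% of mutant members, against 11.3% and 6.50% of all gated nuclei. The level of Npsr1 itself was lower in the mutant library. Ndnf and Anxa1 picked 16.9% and 7.34% of members, against 15.9% and 4.45% of all gated nuclei, so that 5.5% and 15.3% of the nuclei it picked were members. The Otx2os1, Calcr and Ndnf scores thus picked a larger share of members than of all gated nuclei in both libraries. For the Ndnf score, which holds 2 of the nigral-type genes, the gap in the wt library was small. The Sema5b and Pde11a scores picked a smaller one. So did the score of Ebf2, Adam12 and Htr2c, with 6.15% and 1.93% of members against 8.89% and 7.61% of all gated nuclei.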

How the data were processed

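Single-nucleus RNA was counted with the 10x Single Cell 3' v3 kit in sorted adult mouse midbrain nuclei. The deposited table held raw UMI counts for 23481 genes in 5740 nuclei. Cell Ranger 3.1.0 and mm10 appear without a role in the submitters' processing notes; filters applied before deposit are not given in the sources used here. The genotype of a nucleus came from the start of its column name, and its lane, 1 of 4, could not be read from it.

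Within each library, the counts of members and of other gated nuclei were summed and divided by their total to give CPM. Log2 ratios, after adding 5 CPM, were taken where members had 50 UMIs or more, or 10 for list genes, counted at 2-fold and 4-fold, or 1.5-fold for lists. Single folds are CPM ratios, with exact binomial 95% intervals on how the counts divide; shares have exact Clopper-Pearson intervals. A gene at 0 UMIs was set to 3 counts over the summed members for an "at least" fold, and a share of 0 allows 3 nuclei. Thinning to 2000 UMIs was without replacement. Oligodendrocyte nuclei had at least 50 UMIs per 10000 of their markers, gate genes under 5 and at least 2000 UMIs. Gene positions came from GENCODE M21 (23058 symbols matched 1 gene) and promoter windows from RefSeq.

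The genes named are the score and gate genes, the 15 highest and 10 lowest against other gated nuclei, the 15 highest and 15 lowest mutant to wt ratios, the 8 widest gaps between members and others in each direction, and members of the lists; some of these genes are not reported here. Members, lists and rules were chosen with earlier results of these data known. Alternatives were other pseudocounts, filters, scalings, gates, score limits and nuclei. The counting was tested on simulated data. Python 3.11.15, numpy 2.4.6, scipy 1.17.1, pandas 2.3.3 and matplotlib 3.10.9 were used.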

Additional observations from a re-analysis of the deposited data

Results flagged for a closer look

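Kctd16, the GABA-B receptor subunit, had a mutant to wt log2 ratio of 1.10 in the Eya1/Neurod6 nuclei and of −0.59 in the other gated nuclei, opposite directions in 1 library pair. The difference was not tested, and it became −0.055 when only nuclei with a Y-linked and no Xist tag were used.

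Outside the dopamine gate, 33 of 893 mutant nuclei with at least 5000 UMIs (3.70%, 2.56 to 5.15) and 8 of 326 wt nuclei (2.45%, 1.07 to 4.78) reached the score of the last member, although they are in no comparison above. Plekhg1 stood at 625 CPM in these wt nuclei and at 949.8 CPM in these mutant nuclei, above that of the members, and 4 and 7 of them had at least 10 UMIs per 10000 of the oligodendrocyte list. A Neurod6 tag was found in 1 and 3 of them, and no gate gene tag in 3 and 18.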

How the results depend on the processing

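Depth limits this group: 65 wt nuclei with 1533856 UMIs stand behind every wt value, and a gene at 0 may have stood at up to 1.96 CPM. The regulators' summed mutant to wt log2 ratio, 2.19, lay between 1.75 (nuclei weighted alike) and 2.46 (without fibroblast-marked nuclei, a setting chosen after seeing the data) under all settings run. Over the settings, 386 of 396 member to other ratios, 416 of 461 mutant to wt ratios and 201 of 244 differences between them stayed on their side of 2-fold. This does not measure how far a value moved. Of the list sums, 392 of 510 stayed within the counting interval of the reported value. Pseudocounts and UMI filters cannot move a list sum, and UMI filters cannot move a single ratio. Such comparisons are included in these counts. No paired analysis was possible because each genotype was 1 library, and no lane or mouse could be left out because the table does not keep them apart.

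The member shares were 3.33% wt and 5.75% mutant with the top 5%, 8.57% and 13.5% with the top 12%, and 8.02% and 8.01% when cut within each library, which fixes them. Reported counts were 95 genes higher and 56 lower in members than others, and 119 higher and 34 lower in mutant members. A pseudocount of 1 CPM gave 217 higher and 69 lower in mutant members; one of 20 CPM gave 50, 31, 25 and 9 in the order above. At least 200 UMIs gave 34 lower in members than others, and 35 higher and 10 lower in mutant members; no filter gave 82 lower in mutant members. Nuclei weighted alike gave 96 lower in members and 66 lower in mutant members. The top 12% gave 24, the thinned score 20 and the cut within libraries 37 lower in members, the last also 52 lower in mutant members. Y-tagged nuclei only, with 8 wt members, gave 45 higher and 18 lower in members and 61 higher in mutant members, with 3 of the 119 and 0 of the 34 among them. The top 5% gave 104 higher and 33 lower in mutant members, of which 50 and 15 were among the 119 and 34, and nuclei with Xist and no Y-linked tag 106 and 46, of which 66 and 23 were; the cause of these shifts was not tested.

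Directions reversed for the endothelial and mural list (0.10 with a gate of 10 UMIs per 10000, 0.91 in Y-tagged nuclei and 0.72 without fibroblast-marked nuclei). In Y-tagged nuclei the log2 ratios became 0.026 for Grik1, 0.78 for Gm8206, 0.48 for Gm15446, 0.65 for Gm45645, 1.04 for Fbn2 and 1.09 for Lama2, and the differences between members and others −0.055 for Kctd16, −0.43 for Slc39a12 and −1.41 for Adamts19. Without fibroblast-marked nuclei they became 0.45 for Dcdc2a, 0.067 for Lpar1 and, as a difference, 0.12 for Ranbp3l.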
